A study of Mus musculus with 8 samples.

Results

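The p24 cargo receptors of the mouse pancreas were followed in 8 arrays of total pancreatic RNA, 4 from control (WT) and 4 from Lmna knockout (KO) animals. The family was taken as 10 named genes, Tmed1 to Tmed7, Tmed9, Tmed10 and Tmed11, and each was represented by the array row that the platform annotation gives to it alone, with the row of highest mean kept where a gene had several. Of the 10 genes, 9 had such a row, among 22180 genes in all; Tmed1 had none and has no value here. The genes were chosen by family name and by the KO minus WT differences of Tmed11 and Tmed6, both already known to be lower in KO pancreas, so the KO and WT values of the members are given as a description without a test.

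WT animals carried the label LmnaWT and KO animals the label LmnaKO, both on the C57 BL6 strain, and each group held 3 males and 1 female. Every animal received tamoxifen by intraperitoneal injection at 3 mg per 40 g of body weight, and RNA was collected 6 days later. By the title of the series, lamin A/C (the nuclear envelope filament protein encoded by Lmna) was ablated in acinar cells, the enzyme-secreting cells of the exocrine pancreas; no Cre driver, allele or age was given in the sources used here. The labels name separate samples and do not say how the animals were chosen, so p-values here cover only the spread among these samples. Lmna itself read 2.81 ± 0.26 in WT and 2.56 ± 0.17 in KO (log2, SD, n = 4 per group; difference -0.24 ± 0.15 SE, limma adjusted p = 0.264), on a dim row whose place relative to the deleted part of the gene is unknown, so it does not check the genotype labels.

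Proteins of the p24 family are small membrane proteins that cycle between the endoplasmic reticulum (ER) and the Golgi. Each has a lumenal GOLD domain, a coiled coil, a single membrane span and a short cytoplasmic tail that binds the COPII coat on the way out of the ER and the COPI coat on the way back. They fall into alpha, beta, gamma and delta subfamilies that assemble with one another, and losing a member commonly destabilises its partners. They are best known for sorting GPI-anchored proteins into COPII vesicles. In the acinar cell this route carries the zymogens, the inactive precursors of digestive enzymes.

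The start regions of 3 members are shown because these genes represent the 3 kinds of value described below: Tmed6 read lower in KO, Tmed9 read higher and Tmed10 hardly differed. Each window runs from 250 bases before to 50 bases after the annotated start, 5′ to 3′ on the gene's strand, from RefSeq on GRCm38.p6. Capitals mark CCACG (one part of the ER stress response element, bound by ATF6 and XBP1 in its full form), CCAAT (its other part, and a general promoter box) and CACCTG (an E-box of the kind bound by PTF1, the acinar master regulator), on either strand.
Tmed6 (chr8:107065595-107065894, minus strand): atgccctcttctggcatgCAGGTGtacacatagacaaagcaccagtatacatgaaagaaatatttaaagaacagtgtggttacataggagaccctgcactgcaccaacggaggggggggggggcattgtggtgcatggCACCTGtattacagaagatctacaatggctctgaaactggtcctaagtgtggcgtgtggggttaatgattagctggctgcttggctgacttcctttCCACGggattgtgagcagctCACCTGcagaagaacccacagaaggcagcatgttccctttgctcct
Tmed9 (chr13:55592885-55593184, plus strand): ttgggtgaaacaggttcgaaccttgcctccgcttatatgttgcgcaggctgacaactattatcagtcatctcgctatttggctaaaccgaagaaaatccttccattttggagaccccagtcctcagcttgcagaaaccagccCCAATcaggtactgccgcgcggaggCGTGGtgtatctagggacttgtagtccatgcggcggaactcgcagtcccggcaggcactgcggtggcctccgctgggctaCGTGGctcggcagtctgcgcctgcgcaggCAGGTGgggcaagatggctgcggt
Tmed10 (chr12:85374668-85374967, minus strand): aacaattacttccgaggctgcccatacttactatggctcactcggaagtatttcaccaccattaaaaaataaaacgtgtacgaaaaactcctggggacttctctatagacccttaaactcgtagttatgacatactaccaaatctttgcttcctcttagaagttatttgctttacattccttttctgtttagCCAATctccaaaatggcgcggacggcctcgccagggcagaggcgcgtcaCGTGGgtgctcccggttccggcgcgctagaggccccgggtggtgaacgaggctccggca

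The Tmed6 window held 3 CpG dinucleotides, while the 7 other windows of the family (Tmed1, with 2 starts, and Tmed3, Tmed4, Tmed5, Tmed9 and Tmed10) held 11 to 37; the median over 32851 windows of the same length was 7. CACCTG occurred at 3 places in the Tmed6 window, and in 4 of the 8 family windows, against 20.2% of all windows. CCACG was present in 7 of the 8 family windows and in 32.8% of all, and CCAAT in 6 of the 8 and in 37.4% of all. CCACG itself holds a CpG, and its share among windows of like CpG count was not counted. The full ER stress response element (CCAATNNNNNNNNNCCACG, 0.119% of all windows) was found in none of the 8. Also in none of the 8 were TGACGTG (the core of the XBP1 element, 2.01% of all), TTTCCCA (the other part of a PTF1 site, 8.06%), CATATG (an E-box bound by MIST1, 3.91%), CAGCTG (16.3%), CAAGGTCA (an NR5A2 site, 1.56%) and TGATGNAA (the CHOP and ATF4 element, 3.97%). Both strands were searched, some of these motifs share letters, and a match describes the letters only. Of the 10 member genes, 7 had a window in the table used here.

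Tmed11 and Tmed6 were lower in KO pancreas, Tmed9 was higher, and the remaining 6 measured members differed by at most 0.51 on the log2 scale. Tmed11 lost 3.14 ± 0.46 log2 units (± SE, n = 4 per group), an 8.82-fold lower value, and Tmed6 1.30 ± 0.20 (2.46-fold lower), while Tmed9 gained 1.24 ± 0.13 (2.37-fold higher). In these 3 genes, and in Tmed7, all KO arrays lay on 1 side of all WT arrays, 4 of 9 members against 27.4% of all genes. In the fit over all genes, 3 of the 9 members were past the threshold (limma, Benjamini-Hochberg adjusted p below 0.05), against 21.6% of all 22180 genes. By direction, 2 of 9 were lower, against 6.99% of all genes, and 1 of 9 higher, against 14.6%. The members were chosen with this comparison in view, so nothing is read from these counts. The samples are whole pancreas, so fewer acinar cells and less RNA per acinar cell cannot be told apart.

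**Figure D1:**
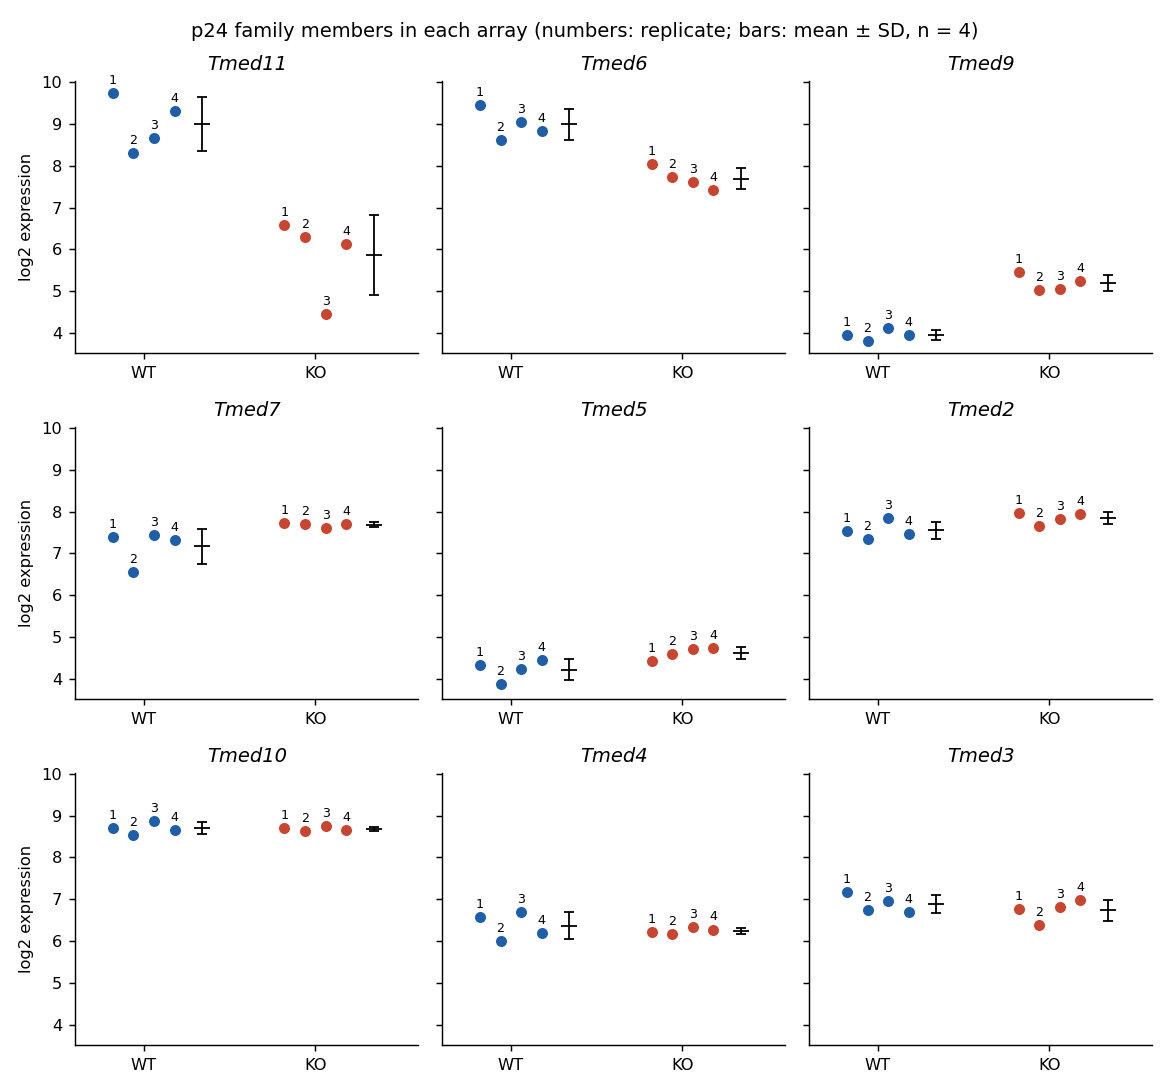
Each panel gives the log2 expression of a p24 member (y axis, the same scale in all panels) in the 4 WT arrays (blue) and 4 KO arrays (red), with the replicate number above each point and the mean ± SD (n = 4) at the right of each group. Tmed11 and Tmed6 lie lower and Tmed9 higher in every KO array; levels of different genes come from different probes and are not comparable.

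The alpha subfamily, which holds Tmed4, Tmed9 and Tmed11, contained both the deepest fall and the only large rise. Tmed11 of the alpha subfamily read 9.73, 8.30, 8.67 and 9.32 in WT arrays 1 to 4 and 6.58, 6.29, 4.46 and 6.13 in KO arrays 1 to 4. The groups did not overlap; the lowest WT array, WT 2, stood 1.72 above the highest KO array, KO 1. KO 3 was the lowest of all and widened the KO spread (SD 0.96, against 0.64 in WT). Leaving out KO 3 gave a difference of -2.67, and over all arrays left out in turn the difference ran from -3.38 to -2.67.

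Tmed9, an alpha member that binds COPI through its tail, read 3.95, 3.81, 4.11 and 3.96 in WT arrays 1 to 4 and 5.46, 5.04, 5.06 and 5.24 in KO arrays 1 to 4. Its groups were tight (SD 0.12 in WT and 0.20 in KO) and clearly apart. With arrays left out in turn the difference ran from 1.15 to 1.30. A second Tmed9 row on the array was dim and read 1.88 ± 0.13 in WT and 1.78 ± 0.05 in KO, so the higher value was carried by the brighter row, and the mean of the 2 rows differed by 0.57. Tmed4, the third alpha member, read 6.58, 6.01, 6.69 and 6.18 in WT arrays 1 to 4 and 6.21, 6.16, 6.34 and 6.28 in KO arrays 1 to 4. Its difference was -0.12 ± 0.16, with all KO arrays inside the range of the WT arrays.

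The gamma subfamily (Tmed3, Tmed5, Tmed6 and Tmed7 among the measured genes) was split as well. Tmed6 read 9.47, 8.61, 9.05 and 8.85 in WT arrays 1 to 4 and 8.03, 7.73, 7.61 and 7.41 in KO arrays 1 to 4. The groups stood apart by 0.58 between WT 2 and KO 1, and leaving out arrays in turn kept the difference between -1.42 and -1.14. Tmed7, a gamma partner in the heteromers that leave the ER, read 7.40, 6.55, 7.44 and 7.32 in WT arrays 1 to 4 and 7.73, 7.71, 7.61 and 7.71 in KO arrays 1 to 4. All KO arrays lay above all WT arrays, yet WT 2 stood far below the other WT arrays, and the difference of 0.51 ± 0.19 became 0.31 without it.

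Tmed5, a gamma member required for efficient ER exit of GPI-anchored proteins, read 4.32, 3.87, 4.24 and 4.45 in WT arrays 1 to 4 and 4.42, 4.60, 4.71 and 4.73 in KO arrays 1 to 4. Its groups overlapped through KO 1 and WT 4, with a difference of 0.40 ± 0.15. Tmed3, the remaining gamma member, read 7.17, 6.75, 6.96 and 6.69 in WT arrays 1 to 4 and 6.76, 6.38, 6.81 and 6.98 in KO arrays 1 to 4. Its KO arrays spread around the WT ones, with a difference of -0.16 ± 0.16.

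Tmed2 and Tmed10 are the sole beta and delta members and form the core of p24 complexes. Tmed10 read 8.71, 8.54, 8.88 and 8.66 in WT arrays 1 to 4 and 8.70, 8.64, 8.76 and 8.65 in KO arrays 1 to 4. Every KO array fell within the WT range, with a difference of -0.01 ± 0.11. Tmed2 read 7.54, 7.36, 7.85 and 7.47 in WT arrays 1 to 4 and 7.96, 7.67, 7.83 and 7.94 in KO arrays 1 to 4, a difference of 0.30 ± 0.14 with overlap through WT 3. The other row of Tmed2 (4.53 ± 0.41 in WT, 4.28 ± 0.32 in KO) was less bright than the kept row and differed the other way, by -0.26. The 2 other rows of Tmed10 (3.43 ± 0.08 against 3.39 ± 0.22, and 1.92 ± 0.11 against 2.04 ± 0.06) were dim. Each genotype gap in these rows of Tmed2 and Tmed10 was under the spread of at least 1 group except in the dimmest Tmed10 row, where it was 0.11.

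How the 6 smaller differences read depends on the scaling between arrays, while those of Tmed11, Tmed6 and Tmed9 kept their direction in each scaling tried. Values were more widely spread in KO than in WT arrays (interquartile range over all rows 2.45 to 2.65 and 2.06 to 2.20). When the arrays were quantile normalized again, the differences were -3.45 for Tmed11, -1.54 for Tmed6 and 0.87 for Tmed9, and under cyclic loess -3.49, -1.57 and 0.89. The same 2 scalings took Tmed7 to 0.21 and 0.17, Tmed5 to 0.03 and 0.06, Tmed2 to 0.03 and -0.03, and Tmed10 to -0.22 and -0.25. Tmed3 moved to -0.52 and -0.55 and Tmed4 to -0.51 and -0.52. Median centring, which raised the median over all genes from -0.06 to 0.08, moved each member up and turned Tmed4 (0.02) and Tmed10 (0.13) above 0. No direction is therefore given for Tmed2, Tmed4 or Tmed10.

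**Figure D2:**
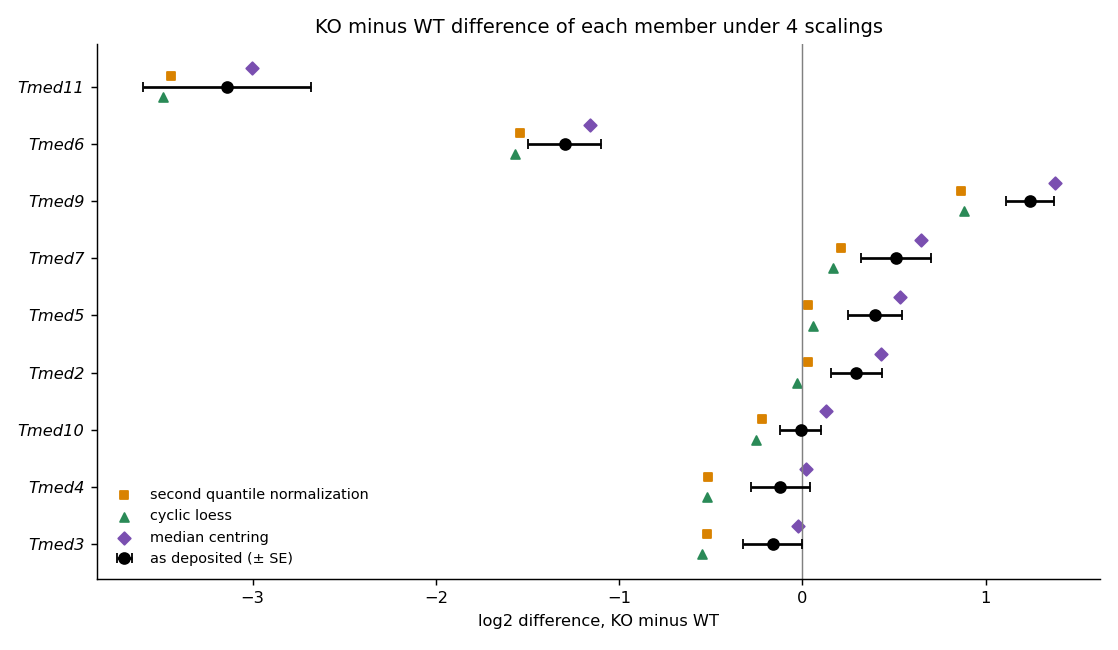
The x axis is the log2 difference, KO minus WT, of each of the 9 measured members: black points with bars are the deposited scaling (± SE, n = 4 per group), and coloured symbols are the same values under quantile renormalization, cyclic loess or median centring. Tmed11 and Tmed6 stay left of 0 and Tmed9 right of 0 in all 4, while Tmed2, Tmed4 and Tmed10 cross it.

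Comparing members within an array removes a shift common to all rows of that array. Each member was first set to its own WT mean, and the median of the 7 measured members besides Tmed11 and Tmed6 was subtracted. On that scale Tmed11 read -2.63, -2.83, -4.82 and -3.26 in KO arrays 1 to 4, and 0.63, -0.51, -0.52 and 0.35 in WT arrays 1 to 4. Tmed6 read -1.16, -1.38, -1.65 and -1.97 in KO and 0.37, -0.19, -0.13 and -0.11 in WT. The KO minus WT difference relative to the other members was thus -3.37 for Tmed11 and -1.53 for Tmed6, and under the 4 scalings it lay between -3.40 and -3.37 for Tmed11 and between -1.53 and -1.48 for Tmed6. The median of the 7 read 0.20, 0.11, 0.28 and 0.39 in KO and 0.10, -0.20, 0.19 and -0.04 in WT, so its groups overlapped.

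**Figure D3:**
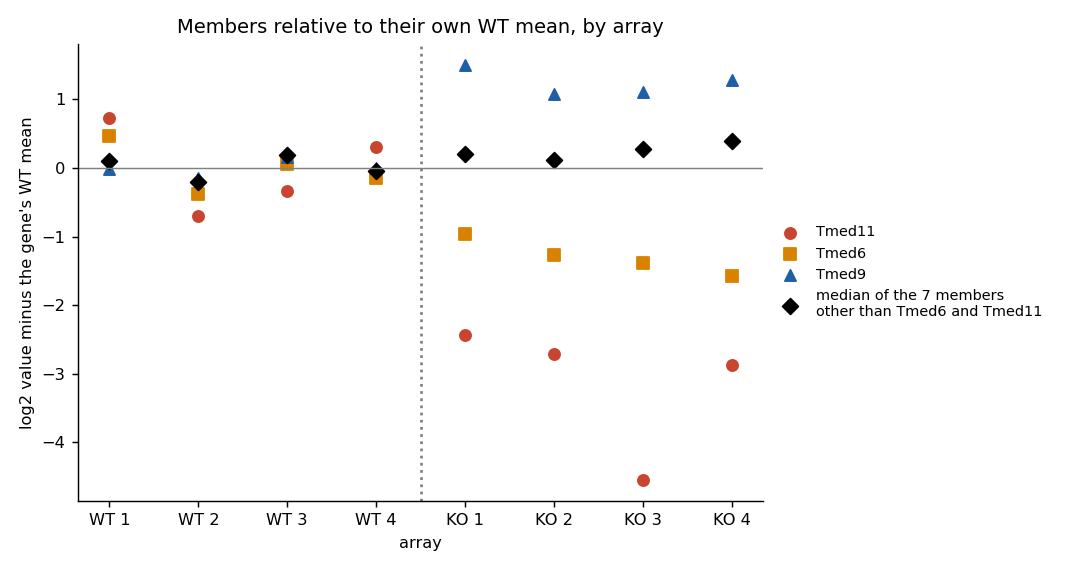
Each point is a log2 value minus the same gene's WT mean (y axis) in 1 of the 8 arrays (x axis, WT left and KO right of the dotted line), for Tmed11, Tmed6, Tmed9 and the median of the 7 members other than Tmed6 and Tmed11. In KO the Tmed11 points lie lowest, with KO 3 below the other KO arrays, Tmed6 lies between them and 0, and Tmed9 lies above 1 in each KO array.

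Members shared low and high arrays within a genotype, and so did other genes. WT 2 was the lowest of the WT arrays for 8 of the 9 members, and WT 3 the highest for 5. WT 2 was also the lowest WT array for each measured COPI coat and Arf gene except Arf3, Arf5 and Arfgap1. The share over all genes was not counted, so nothing particular to the family is read from these counts. WT 2 also had the narrowest interquartile range of the 8 arrays (2.06), and the part of that in the members' values was not tested. Over the 8 arrays, Tmed11 and Tmed6 had a Pearson r of 0.93 with each other and of -0.85 and -0.86 with Tmed9. These points share the genotype difference, so the r values describe these arrays only.

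The array signal of a gene also bears on how its difference reads. Genes of middle signal read higher in KO as a body: the median difference was 0.45 for the 2797 genes with a mean log2 level of 4 to 5, of which 36.6% passed as higher, and 0.30 for the 358 genes at 7 to 8. Tmed9 and Tmed5 lie in the first of these bins. Tmed9 stood above the 90th percentile of its bin (1.14), and Tmed5 stood near the bin's median. Tmed11, in the bin from 7 to 8, and Tmed6, in the bin from 8 to 9, stood below the 10th percentiles of their bins (-0.41 and -0.72). Both genes were chosen by this same difference, so their place is a description and no test. The bin of Tmed11 also rests on a mean (7.43) that lies between its WT mean of 9.01 and its KO mean of 5.86. Tmed2 and Tmed7 lay between the 10th and 90th percentiles of the bin from 7 to 8, and Tmed10, Tmed3 and Tmed4 within those of their own bins.

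**Figure D4:**
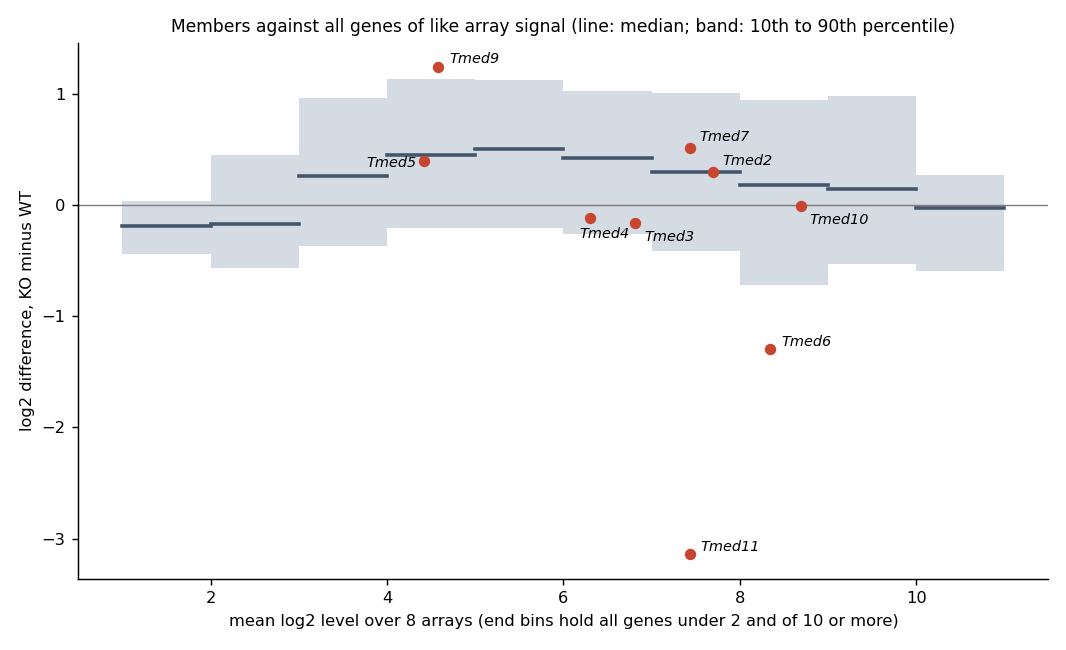
The x axis is a gene's mean log2 level over the 8 arrays and the y axis its log2 difference, KO minus WT; grey steps show the median (line) and the 10th to 90th percentile (band) of all genes in each bin of 1 log2 unit, and red points are the 9 p24 members. Tmed11 and Tmed6 lie under the band, Tmed9 lies just over it, and the other 6 members lie inside it.

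Sex was a contrast that the choice of members did not use. With sex as a term beside genotype, 0 of the 9 members passed (limma, 2 females against 6 males, adjusted p = 0.9999 for each). Of all 22180 genes 1 passed (0.00451%). At an unadjusted p of 0.05, 0 members and 558 of all genes were called. With so few genes called at all, nothing particular to the members is read from their 0. The largest female minus male value was that of Tmed11, 0.39 ± 0.55, followed in size by Tmed6 at -0.29 ± 0.22. The genotype difference of Tmed11 was -3.13 among males and -3.18 between the 2 females, that of Tmed6 was -1.25 and -1.43, and that of Tmed9 was 1.23 and 1.28. The test of the genotype by sex difference also called 0 members (limma adjusted p = 0.9999 for each) and 1 of all 22180 genes (0.00451%). At an unadjusted p of 0.05 it called 0 members and 385 of all genes. With 1 female per genotype both sex tests are weak: the SE of the genotype by sex difference was 1.18 for Tmed11.

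Genes for the coats, receptors and tethers on the route of the p24 proteins rose about as often as other genes of their array signal. Over 6 lists of trafficking genes, 37 of 97 measured genes rose and 2 fell, with a median of 0.34, against 14.6% and 6.99% of all genes and a median of -0.06. That is 38.1% higher and 2.06% lower. Most list genes had a mean log2 level of 4 to 8, and of all genes at 4 to 5, 5 to 6, 6 to 7 and 7 to 8, the shares that rose were 36.6%, 39.7%, 34.3% and 29.9% and the shares that fell 3.36%, 3.14%, 4.84% and 6.98%. The count of rises is therefore near that of all genes of like signal, and nothing particular to these lists is read from it. The count of rises was 13 under quantile renormalization and 18 under cyclic loess, with 5 and 8 falls, and it was 23 without KO 4. The lists were drawn up with earlier results of these data known.

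Among COPI coat and Arf genes, which return p24 proteins to the ER, 9 of 17 (52.9%) rose and 1 fell, with a median of 0.61. Of the 17, 4 each lay at levels of 6 to 7, 7 to 8 and 8 to 9. Of all genes there, 34.3%, 29.9% and 26.8% rose. The share of this list was above these, a gap that was not tested. The GTPase Arf4 rose by 1.38 ± 0.17 (limma adjusted p = 0.00204) and the coat subunits Copa by 0.79 ± 0.12 (adjusted p = 0.00369) and Copb2 by 0.95 ± 0.18 (adjusted p = 0.00722). Copz2, the second zeta subunit of the coat, read 8.71 to 9.0 in WT and 7.59 to 8.09 in KO without overlap, and its change was -1.001 ± 0.14 (limma adjusted p = 0.00248). The other zeta subunit, Copz1, singled out after its values were seen, read 6.98 to 7.39 in WT and 7.68 to 7.90 in KO and rose by 0.63 ± 0.13 (limma adjusted p = 0.0106); this call was lost under quantile renormalization (0.35), under cyclic loess (0.29) and with the mean of the gene's rows (0.43), while the Copz2 call held in each. Among COPII and ER exit genes 5 of 15 (33.3%) rose and 1 fell, with a median of 0.36; at levels of 6 to 7, where 9 of the 15 lay, 34.3% of all genes rose. The inner coat subunit Sec23a rose by 1.48 ± 0.16 (adjusted p = 0.00126), the GTPase Sar1b by 1.01 ± 0.15 (adjusted p = 0.00331) and the cargo-binding Sec24a by 0.95 ± 0.23 (adjusted p = 0.0208). Sec31b, an outer coat subunit on a dim row, had a change of -0.73 ± 0.15 (limma adjusted p = 0.012). The call of Sec24a was lost under quantile renormalization and cyclic loess, and without KO 3 or KO 4.

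Other cargo and retrieval receptors rose in 7 of 19 genes (36.8%) and fell in 0, with a median of 0.12. All genes at levels of 5 to 6 and 6 to 7, where 5 and 4 of the 19 lay, rose in 39.7% and 34.3% of cases and had medians of 0.50 and 0.43, so the share was near the background and the median below it. The KDEL receptor Kdelr2, which returns escaped chaperones to the ER, rose by 1.46 ± 0.21 (limma adjusted p = 0.00286), and Mia3 (TANGO1), which organises ER exit sites for bulky cargo, by 0.95 ± 0.17 (adjusted p = 0.00672). The ER membrane receptors Bcap29 (1.28 ± 0.21, adjusted p = 0.0045) and Bcap31 (0.74 ± 0.12, adjusted p = 0.00443) also rose, the latter not under quantile renormalization or cyclic loess.

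Golgi tethers, SNAREs and Rabs rose in 8 of 17 measured genes (47.1%) and fell in 0, with a median of 0.43. Examples were the SNAREs Gosr1 (1.17 ± 0.21, limma adjusted p = 0.00613) and Gosr2 (0.62 ± 0.13, adjusted p = 0.0123) and the tethers Golgb1 (1.03 ± 0.20, adjusted p = 0.00896) and Golga2 (0.79 ± 0.18, adjusted p = 0.0154); the calls of Gosr2 and Golga2 were lost under quantile renormalization and under cyclic loess. At levels of 4 to 5, 5 to 6 and 6 to 7 lay 3, 4 and 5 of the 17 Golgi genes. Of all genes there, 36.6%, 39.7% and 34.3% rose, below the share of the Golgi list, and that gap was not tested. Genes that make and remodel the GPI anchor, the sorting signal of the best-known p24 clients, rose in 7 of 24 measured genes (29.2%) and fell in 0, with a median of 0.24. Of all genes at levels of 3 to 4 and 4 to 5, where 6 and 11 of the 24 lay, 22.9% and 36.6% rose, so the GPI anchor share was near the background. Pign rose by 1.15 ± 0.16 (limma adjusted p = 0.00245) and the transamidase subunit Pigu by 1.35 ± 0.28 (adjusted p = 0.0116). Pgap2, a remodelling factor (0.57 ± 0.10, adjusted p = 0.00681), and the mannosyltransferase Pigv (0.55 ± 0.16, adjusted p = 0.0349) rose too, but Pigu and these 2 lost the call under quantile renormalization, and Pgap2 and Pigv under cyclic loess. Pigv also lost it without WT 2, WT 4, KO 2, KO 3 or KO 4 and with the replicate number as a block (adjusted p = 0.0592).

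Of 5 other proteins with a GOLD domain 1 rose and 0 fell, with a median of 0.32. At levels of 2 to 3 and 5 to 6, where 2 and 2 of the 5 lay, 5.07% and 39.7% of all genes rose. Acbd3, a Golgi scaffold, rose by 1.06 ± 0.15 (limma adjusted p = 0.00299). The others did not pass: Fyco1 differed by 0.32 ± 0.14, Sec14l1 by 0.32 ± 0.16, Tmed8, which lacks the membrane span of the p24 family, by 0.19 ± 0.13, and Sec14l2 by -0.10 ± 0.15. Fyco1 and Sec14l1 turned below 0 under quantile renormalization and cyclic loess, and Sec14l2 above 0 after median centring.

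Some genes of the acinar secretory programme fell, and most did not pass the test. Of 22 measured genes for secretory cargo 0 rose, 8 (36.4%) fell and 14 were not called, with a median of -0.19. Over all genes 6.99% fell. Of the 57 genes with a level of at least 10, 15.8% fell, but 16 of these 57 belonged to the list itself. The fallen list genes at that level were Cela3b, Prss2, Pla2g1b and Zg16. Cela3a and Amy1 lay at 5 to 6, and Ctrc and Amy2b at 8 to 9, where 3.14% and 14.4% of all genes fell. The elastase Cela3a (-3.24 ± 0.24, limma adjusted p = 0.000437), chymotrypsin C Ctrc (-2.24 ± 0.23, adjusted p = 0.00111), the amylase Amy2b (-1.89 ± 0.14, adjusted p = 0.000437) and the trypsinogen Prss2 (-0.89 ± 0.14, adjusted p = 0.0039) fell; enzymes of these families have near-identical copies that could share probes. Of 10 transcription factors 0 rose, 2 fell and 8 were not called, with a median of -0.21; at levels of 5 to 6, 6 to 7 and 7 to 8, where 4, 2 and 3 of them lay, 3.14%, 4.84% and 6.98% of all genes fell. Bhlha15 (MIST1), which maintains the secretory architecture of acinar cells, changed by -1.42 ± 0.12 (limma adjusted p = 0.00057) and Rbpjl, the adult subunit of the PTF1 complex, by -1.60 ± 0.17 (adjusted p = 0.00126).

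The factors that drive secretory capacity in many cell types did not pass in this fit. Xbp1 differed by -0.17 ± 0.19 (limma adjusted p = 0.534), Atf6 by 0.67 ± 0.27 (adjusted p = 0.0996), Creb3l1 by -0.32 ± 0.15 (adjusted p = 0.138) and Creb3l2 by -0.05 ± 0.20 (adjusted p = 0.871). Atf6 passed without WT 1 (0.85). Creb3l1 passed under quantile renormalization (-0.72), cyclic loess (-0.72), with array weights (-0.41) and without WT 2 (-0.44). Of the acinar and endodermal factors, Ptf1a differed by 0.03 ± 0.31, Nr5a2 by -0.26 ± 0.18, Gata4 by -0.42 ± 0.18 and Gata6 by 0.35 ± 0.27, none past the threshold; Nr5a2 and Gata4 passed as lower under quantile renormalization (-0.59 and -0.84) and cyclic loess (-0.62 and -0.83), and Nr5a2 without WT 2 (-0.43). At an unadjusted p of 0.05, 1 of the 10 factors was higher and 3 were lower, while the cargo list still had 0 higher and the receptor, Golgi, GPI anchor and GOLD domain lists 0 lower. At that p 4859 of all 22180 genes were higher and 3817 lower, so nothing is read from the counts of the factors.

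**Figure D5:**
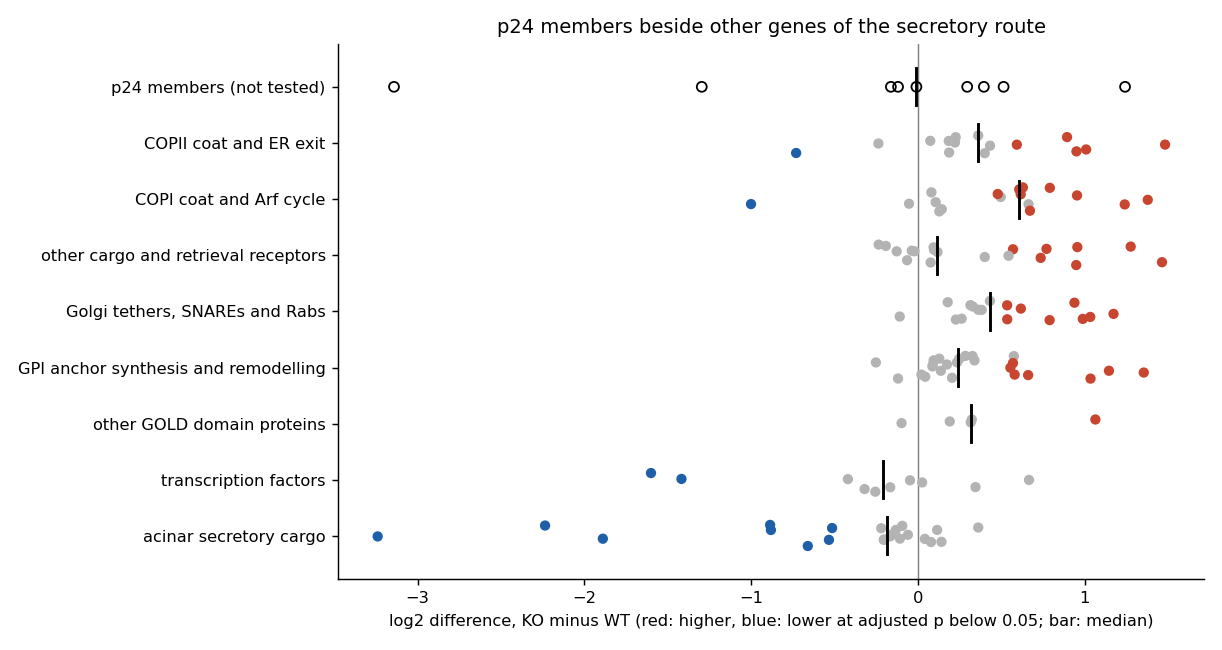
The x axis is the log2 difference, KO minus WT; the top line shows the 9 p24 members as open circles and the lines under it the measured genes of 8 lists, red where higher and blue where lower at a limma adjusted p below 0.05, grey otherwise, with a bar at each median. Most coloured genes of the 6 trafficking lists lie right of 0 and those of the transcription factor and acinar cargo lists lie left of it, while the p24 members spread from -3.14 to 1.24.

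The genes whose values ran most like those of Tmed11 over the 8 arrays, among 2024 genes with a mean of at least 6 in 1 genotype, were Prss2 (Pearson r = 0.98), the ER protein Erp27 (0.98), Ttyh1 (0.97), the aquaporin Aqp12 (0.97) and the glycine amidinotransferase Gatm (0.97). Their differences ran from -1.43 for Ttyh1 to -0.89 for Prss2, all smaller than that of Tmed11. For Tmed6 they were Otud3 (0.98), Aldh7a1 (0.98), Ntn1 (0.97), Tead2 (0.97) and Syne4 (0.97), with differences from -1.52 for Tead2 to -0.72 for Syne4. Ttyh1, Otud3, Ntn1, Tead2 and Syne4 reached a mean of 6 in WT only, so they passed the filter through the group where they were higher. No gene was on both lists, and with 8 arrays in 2 genotypes a high r is common.

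Markers of other cells were set beside all genes, of which 14.6% rose and 6.99% fell. Macrophage markers rose in 5 of 12 genes and fell in 0 (summed log2 level 7.85 to 9.64 in WT and 9.32 to 10.80 in KO). Their median difference was 1.42, with all 12 above 0. Of all genes at levels of 4 to 5 and 5 to 6, where 4 and 4 of the 12 lay, 36.6% and 39.7% rose. The medians of all genes there were 0.45 and 0.50, below the macrophage median, and that gap was not tested. Duct markers rose in 2 of 8 and fell in 1 (9.55 to 10.14 and 9.05 to 9.84, median difference 0.38). Stellate and fibroblast markers rose in 1 of 11 (9.0 to 10.82 and 9.60 to 12.06, median difference 1.07). Of 9 islet markers 1 fell (8.0 to 9.70 and 8.13 to 10.06, median difference 0.14). Nothing is read from these counts of 1 or 2 genes. In the neutrophil (7 genes, 4.95 to 5.57 in WT and 4.75 to 6.94 in KO), lymphocyte (8 genes, 4.95 to 6.52 and 4.90 to 7.94), endothelial (7 genes, 7.0 to 7.37 and 6.52 to 7.49) and adipocyte (5 genes, 6.70 to 7.56 and 6.66 to 9.39) lists, limma called 0 genes; at an unadjusted p of 0.05 these lists held 1 lower lymphocyte gene, 1 lower endothelial gene and no other. At that unadjusted p, 11 of the 12 macrophage markers and 5 of the 11 stellate and fibroblast markers were higher in KO and 0 were lower. Of all 22180 genes, 4859 were higher and 3817 lower at that p. The median differences of the neutrophil, lymphocyte, endothelial and adipocyte lists were 0.62, -0.12, -0.04 and 0.46. The summed level of acinar cargo was 15.80 to 15.86 in WT and 15.50 to 15.70 in KO, with every KO array below every WT array. Its brightest rows, such as Ctrb1 (12.37 in WT and 12.31 in KO), lay near the highest value of any row (12.35 in KO 3, the lowest such maximum of the 8 arrays). Whether rows this bright can show the full size of a difference was not tested. The part of these other cells in the values of the p24 members was not tested.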

How the data were processed

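Biotin-labelled cDNA from 100 ng of total RNA of each pancreas was hybridised to whole-transcript arrays, per the labels' protocols. The table deposited by the authors holds RMA values in 41345 rows and 8 columns, 1 per array, per the submitters' processing notes, which name oligo, RMA and limma without versions. The deposited values were taken as log2 from their range, since the log base is not stated, and neither background levels, scan batches nor probe positions are given in the sources used here. Of the rows, 23521 had 1 gene symbol in the platform annotation and were used; 1814 with several and 16010 with none were left out. For 1082 genes in several rows the row of highest mean was kept (22180 genes, no filter on dim rows). Genotype was fitted with limma 3.58.1 in R 4.3.3 (lmFit, eBayes) on all 8 arrays, and p-values were adjusted by Benjamini-Hochberg over the 22180 genes (threshold 0.05). Differences are KO minus WT on the log2 scale. The steps were tested on simulated data.

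Replicate numbers 1 to 4 occur in both groups. Deviations from the group mean correlated, over all genes, at 0.26, 0.17, 0.11 and 0.14 between arrays with the same number. Between arrays with different numbers they ran from -0.21 to 0.12, and WT 4 with KO 2 (0.12) and WT 3 with KO 1 (0.11) also passed 0.1. As each same-number value was over 0.1, arrays were treated as paired in the block alternative. No label ties a number to a litter or day, and number 4 is the female of each group.

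The members and gene lists were chosen with earlier results of these data known. The rule for named genes took all members, Lmna, up to 4 genes of smallest p per list (the transcription factor and GOLD domain lists whole) and the 5 genes of highest Pearson r with Tmed11 and with Tmed6. Summed marker levels are log2 of the sum of linear values. Alternatives were the replicate block, sex as a term, leaving out each array, quantile renormalization (a second pass over the deposited values), cyclic loess, median centring, array weights, robust eBayes with a trend, a mean level of at least 4 in 1 genotype and the mean of a gene's rows. Start regions and their letters are from RefSeq on GRCm38.p6.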

Additional observations from a re-analysis of the deposited data

Results flagged for a closer look

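In groups of 4, an array whose distance to its nearest neighbour exceeded a share of 0.83 of the group's range (Dixon's ratio) was marked. Of 108 groups examined 11 were marked, and chance marks about 1 in 20.

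Among the p24 members Tmed7 was marked in both genotypes. The other WT arrays lay at 7.32 to 7.44 and WT 2 at 6.55; the other KO arrays lay at 7.71 to 7.73 and KO 3 at 7.61, a small gap in log2 units. Tmed6 relative to the median of the 7 other members was highest in WT 1 (0.37, against -0.19 to -0.11). The distance of Tmed11 from Tmed6, each set to its own WT mean, was -3.17 in KO 3 and -1.47 to -1.29 elsewhere in KO.

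Of the other named genes, Arf4 (7.24) and Fyco1 (4.92) were lowest in WT 2. Golgb1 (6.28) and Amy2b (7.99) were highest in KO 1, Gata4 (6.39) was highest in WT 3, Cela3a (6.39) was lowest in WT 1 and Copz1 (7.68) was lowest in KO 2.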

How the results depend on the processing

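The KO minus WT values of Tmed11 and Tmed6, alone and relative to the other members, kept their direction and moved by less than 1 SD in every alternative. Some alternatives could not move them: the replicate block, sex as a term, robust eBayes and the filter on level. Median centring could not move the relative values, and the mean of a gene's rows could not move Tmed11 or Tmed6 alone, as each has 1 row. With arrays left out in turn, Tmed11 ran from -3.38 to -2.67 and Tmed6 from -1.42 to -1.14, and relative to the other members from -3.63 to -2.89 and from -1.65 to -1.39. Of the values of the 7 other members, 17 of 119 moved by more than 1 SD, in the scalings and with the mean of a gene's rows.

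The members past the threshold numbered 3 of 9, but 4 after quantile renormalization, 5 after median centring and 5 after cyclic loess. The members were chosen with this comparison in view, so nothing is read from their counts. Over all 22180 genes 4792 passed (3241 higher, 1551 lower), against 2370 (1228 higher) after quantile renormalization and 2699 (1521 higher) after cyclic loess. After median centring 5005 passed (4390 higher, 615 lower). With a mean level of at least 4, 333 were lower. Higher genes were 67.6% of calls, 51.8% after quantile renormalization, 56.4% after cyclic loess and 87.7% after median centring. With arrays left out the total ran from 2240 (without KO 4) to 6070 (without WT 1), higher genes from 1781 to 3713 and lower genes from 459 to 2357.

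In trafficking genes 39 passed (37 higher, 2 lower). Quantile renormalization gave 18 (13 and 5), cyclic loess 18 higher and 8 lower, and the filter on level 1 lower. With arrays left out the total ran from 25 to 43 and the rises from 23 to 41. With the replicate number as a block 39 trafficking genes and 5046 genes in all passed, Pigv lost its call (0.55, adjusted p = 0.0592), and no other call of a named gene changed.

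Of 693 values of named genes, 642 kept direction and side of the threshold, 24 lost the call, 10 gained it and 17 changed sign. Signs turned for Sec14l1 (-0.099 and -0.075), Fyco1 (-0.11 and -0.087), Ptf1a (-0.38 and -0.38) and Gata6 (-0.065 and -0.059) after quantile renormalization and cyclic loess, and for Sec14l2 (0.038) and Creb3l2 (0.089) after median centring. With arrays left out Sec14l2 ran from -0.19 to 0.023, Creb3l2 from -0.26 to 0.087 and Ptf1a from -0.19 to 0.27. For genotype by sex, 0 of the 9 members passed after quantile renormalization, median centring, the trend with robust eBayes or with arrays left out, the alternatives run for it; the fits without WT 4 or KO 4 could not be made, since they leave a genotype without a female. The causes of these changes were not tested. Precision is limited by the number of arrays, and signal over background is unknown.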
